A study of Mus musculus with 20 samples.

Results

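The genes described here encode the main scaffold proteins of the postsynaptic density, the protein sheet under the membrane of excitatory synapses. The members were fixed by name as Dlg1, Dlg2, Dlg3, Dlg4, Shank1, Shank2, Shank3, Homer1 and Dlgap1, and the rows with these names were taken from a table of raw gene counts. All 9 members had a row among the 25965 rows, and all 9 were among the 16690 genes with enough counts to be tested. The rule uses names only, and the members were chosen with earlier results of these data known.

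The scaffold is built in layers. Dlg proteins, of which PSD-95 (the product of Dlg4) is the best known, lie under the membrane and bind glutamate receptors, channels and adhesion proteins. Dlgap1 (GKAP, also called SAPAP1) links them to the Shank proteins below, and Homer1 binds Shank and connects the assembly to metabotropic glutamate receptors and to calcium stores. A short form of Homer1 (Homer1a) is induced by neuronal activity, and counts per gene do not separate it from the long forms.

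RNA was measured in frontal cortex from C57BL/6 mice aged 5 months that differed in Tardbp, where 0, 1 or 2 alleles had been altered by knock-in. The altered allele changes the RNA-binding protein TDP-43 at 1 amino acid (Q331K), and it sits in the mouse's own gene, so no transgene promoter drives it. There were 6 wild-type (+/+), 6 heterozygous (Q331K/+) and 8 homozygous (Q331K/Q331K) libraries of stranded polyadenylated RNA. The labels list separate samples and name no litter, sex or batch, so the spread that a p-value measures is that between samples and may be technical in part. In tissue, fewer cells of a type and less RNA per cell cannot be told apart.

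Library totals ran from 61282647 to 111440766 counts across the genotypes. Homozygotes had 0.17 more Tardbp mRNA, that of the edited gene, than wild type on the log2 scale (SE 0.029, edgeR adjusted p = 0.00372), and its counts may include reads of Masp2 on the opposite strand. Summed markers of excitatory cortical neurons lay between 8732 and 10238 CPM (count scaled to library size) in each library. Markers of neighbouring tissue varied between libraries, and most of them were higher in homozygotes than in wild type. The summed striatal markers reached 575 CPM in heterozygous replicate 1 and were at most 312 CPM in every other library. The summed ependymal markers were at most 13.8 CPM in wild type and reached 34.9 CPM in homozygotes, and the summed olfactory bulb markers reached 164 CPM in homozygotes against at most 97.6 CPM in the other genotypes.

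Promoter sequences are shown for 3 members: Homer1, which varied most between libraries, and Dlg4 and Shank3. Levels of Dlg4 and Shank3 varied together across libraries (r = 0.794), and their promoters differ widely in base composition. With the slope of each library on G and C content removed, as described below, the pair had r = 0.288 and did not pass. Whether promoter composition plays a part was not tested. Each window of 300 bases reaches from upstream of the RefSeq start of transcription to just inside the transcript (GRCm38.p6, plus strand, 5′ to 3′). The RefSeq start used for Dlg4 lies 118 bases from the gene start given below, and windows at other starts are not shown. Capitals mark every match to TGACG, the core of the cyclic AMP response element, or to GGGCGG, the GC box, on either strand (CGTCA and CCGCCC on the strand shown). The Homer1 window at chr13:93303507-93303806 is 63.0% G or C, the Dlg4 window at chr11:70016953-70017252 is 46.3% and the Shank3 window at chr15:89499358-89499657 is 81.0%.
Homer1: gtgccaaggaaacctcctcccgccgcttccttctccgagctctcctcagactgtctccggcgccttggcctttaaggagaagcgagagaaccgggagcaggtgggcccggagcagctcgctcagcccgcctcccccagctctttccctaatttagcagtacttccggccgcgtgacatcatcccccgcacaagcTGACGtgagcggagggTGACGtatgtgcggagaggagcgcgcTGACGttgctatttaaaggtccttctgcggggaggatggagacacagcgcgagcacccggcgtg
Dlg4: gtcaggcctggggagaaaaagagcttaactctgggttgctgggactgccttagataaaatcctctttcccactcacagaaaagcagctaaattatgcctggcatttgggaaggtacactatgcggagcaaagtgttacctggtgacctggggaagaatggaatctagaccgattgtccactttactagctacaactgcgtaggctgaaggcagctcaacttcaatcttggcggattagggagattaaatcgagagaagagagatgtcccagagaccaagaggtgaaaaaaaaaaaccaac
Shank3: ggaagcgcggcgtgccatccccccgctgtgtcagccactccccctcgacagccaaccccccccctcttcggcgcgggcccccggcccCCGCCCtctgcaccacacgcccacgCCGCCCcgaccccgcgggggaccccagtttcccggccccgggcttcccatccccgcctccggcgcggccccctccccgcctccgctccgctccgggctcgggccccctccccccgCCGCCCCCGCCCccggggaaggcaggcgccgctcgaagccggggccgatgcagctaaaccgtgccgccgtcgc
The Homer1 window held 3 matches to TGACG and no GC box. The Shank3 window held 4 GC boxes, of which the last pair directly adjoin, and no TGACG. The Dlg4 window held neither. Among 32851 RefSeq mouse promoters of the same length, 20.81% held at least 1 TGACG and 1.035% at least 3, whereas 35.66% held at least 1 GC box and 10.71% at least 3. Of the members, 7 had a promoter in the RefSeq table, and Shank1 and Shank2 are named only. A match is a description of letters and not of binding.

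Levels were compared between members per kilobase of merged exons (GENCODE M21), because CPM grows with transcript length. On this scale Shank1 was the most abundant at 67.6 ± 5.21 CPM per kb (SD, n = 20), followed by Dlg4 at 62.1 ± 3.23 CPM per kb. Dlg3 lay at 38.7 ± 1.01, Dlgap1 at 34.8 ± 1.36, Shank3 at 29.5 ± 1.92 and Shank2 at 26.3 ± 1.91 CPM per kb. The lowest were Dlg2 at 18.5 ± 0.474, Dlg1 at 16.4 ± 0.562 and Homer1 at 15.1 ± 2.76 CPM per kb. Each member exceeded the next in this order in 20 of 20 libraries, except that Dlg1 exceeded Homer1 in 13 of 20, so these neighbours did not differ beyond their spread. All 9 are abundant genes of this tissue. Homer1, at the bottom, still stood at the 81.2 percentile of the 16434 tested genes with a length, and Shank1 at the 96.9 percentile.

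**Figure D1:**
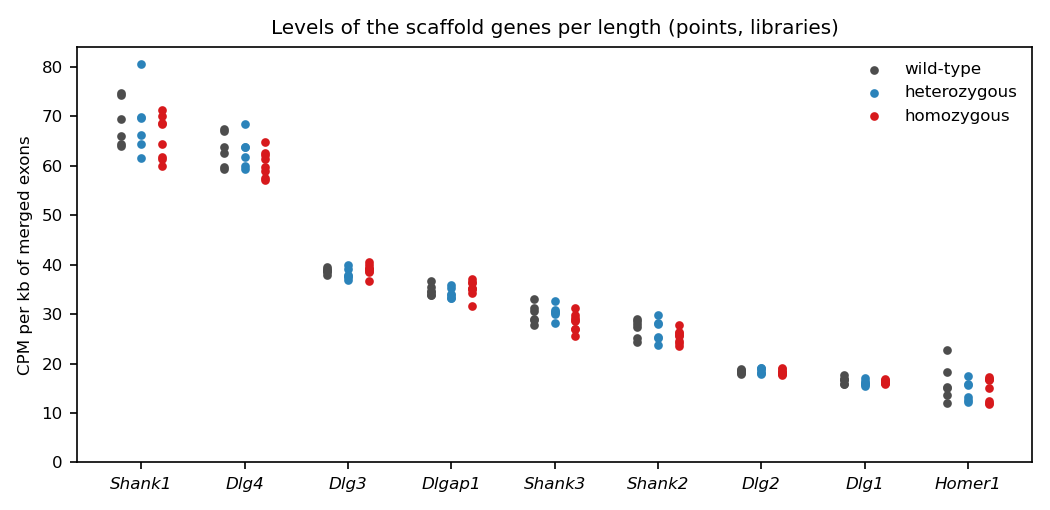
Level of each scaffold gene in CPM per kilobase of merged exons (vertical axis, linear, from 0), with 1 point per library and the 3 genotypes side by side. Shank1 and Dlg4 stand above the other members in every library, while Dlg1 and Homer1 overlap at the bottom.

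The order depended on which length was used. The merged exons of Dlg4 span 13.251 kb, but its longest coding transcript spans 6.326 kb. Divided by the longest coding transcript, Dlg4 came first at 130.1 CPM per kb, Dlgap1 second at 86.8 and Shank1 at 72.3, and Dlg1 came last at 28.6 CPM per kb. The placing of Dlg4 and Shank1 among the upper members and of Dlg1 among the lower ones held on both scales.

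No member passed the test between any genotypes. The comparison of homozygotes with wild type asks whether the mutant protein, as the only form made, goes with a different level of these mRNAs. Here 0 of 9 members passed edgeR's quasi-likelihood test at 0.05 after Benjamini-Hochberg adjustment, beside 1.56% of all genes tested, and 0 of 9 had an unadjusted p under 0.05, beside 16.1% of all genes. The member with the smallest p was Shank3 (adjusted p = 0.356). In heterozygotes against wild type 0 of 9 were called, beside 0% of all genes, and 0 had an unadjusted p under 0.05, beside 3.19% of all genes. In homozygotes against heterozygotes 0 of 9 were called, beside 0.108% of all genes, and 1 had an unadjusted p under 0.05, beside 11.0% of all genes. For the trend with the number of Q331K alleles, 0 of 9 were called beside 1.83% of all genes, with 0 at an unadjusted p under 0.05, beside 16.8% of all genes. DESeq2 also called 0 of 9 in each comparison. The CPM ranges of the 2 genotypes overlapped for all 9 members in each pairwise comparison. Ranges that do not overlap were found for 0.779% of genes in homozygotes against wild type, for 0.198% in heterozygotes against wild type and for 0.288% in homozygotes against heterozygotes.

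**Figure D2:**
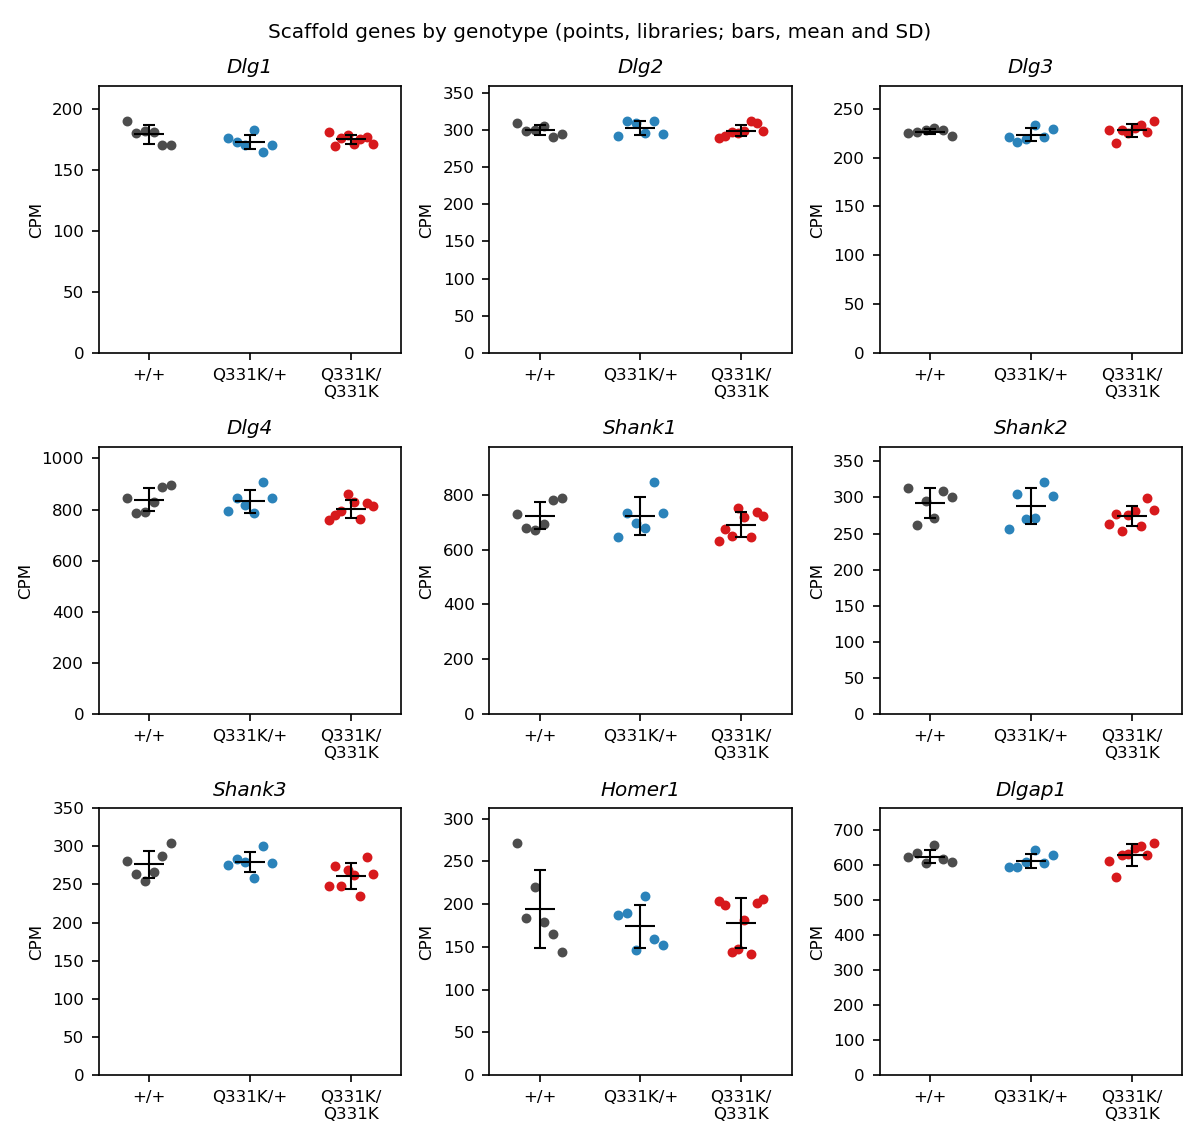
CPM of each scaffold gene (vertical axes, linear, from 0) in 6 wild-type, 6 heterozygous and 8 homozygous libraries (points), with the mean and SD as bars. The ranges of the 3 genotypes overlap in every panel, and Homer1 has the widest spread relative to its level.

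The Dlg genes encode the membrane-facing layer. Dlg1 (SAP97), which takes part in the trafficking of AMPA receptors, measured 171 CPM at the lowest, 181 at the median and 191 at the highest in wild type. It ran from 165 through 172 to 183 CPM in heterozygotes and from 170 through 176 to 181 CPM in homozygotes. The highest library was wild-type replicate 1 and the lowest heterozygous replicate 5, and the genotypes overlapped. The log2 difference of homozygotes from wild type was -0.034 (95% interval -0.091 to 0.024, edgeR adjusted p = 0.597).

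Dlg2 (PSD-93), which anchors receptors and potassium channels, covers 1356.3 kb of chromosome 7 (91090706 to 92447003, GRCm38), the longest locus of the set. It ran from 291 through 299 to 309 CPM in wild type, from 292 through 303 to 312 CPM in heterozygotes and from 289 through 298 to 312 CPM in homozygotes. These ranges nearly coincide. The homozygous difference on the log2 scale was -0.0028 (95% interval -0.055 to 0.05, edgeR adjusted p = 0.972), so a change of more than 0.055 in either direction lies outside the interval. Exons of Gm45131 and Gm45159 overlap Dlg2 on the same strand, and counts there may be shared.

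Dlg3 (SAP102), an X-linked scaffold that carries NMDA receptors and is prominent early in development, had the smallest SD of log2 CPM pooled within genotypes, 0.0377 against 0.0383 for Dlg2. In homozygotes alone Dlg1 and Dlg2 varied less, with SDs of 2.20% and 2.60% of the mean against 2.95% for Dlg3. Its wild-type libraries ran from 222 through 227 to 231 CPM, the heterozygous from 216 through 221 to 234 CPM and the homozygous from 214 through 228 to 238 CPM. Homozygotes held both the lowest library (replicate 2) and the highest (replicate 8). Their log2 difference from wild type was 0.009 (95% interval -0.042 to 0.06, edgeR adjusted p = 0.899).

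Dlg4 (PSD-95), which recruits AMPA receptors through stargazin and binds NMDA receptors, lies on chromosome 11 from 70017085 to 70045532. It had the highest CPM of the set, from 786 through 838 to 895 in wild type, from 787 through 832 to 909 in heterozygotes and from 758 through 804 to 859 in homozygotes. The homozygous mean of 803 ± 35.2 CPM (SD, n = 8) was below the wild-type mean of 839 ± 46.2 CPM (SD, n = 6), but the ranges overlapped widely. The log2 difference was -0.065 (SE 0.039, 95% interval -0.14 to 0.015) and did not pass (edgeR adjusted p = 0.432).

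Dlgap1, which binds the guanylate kinase domain of PSD-95 on one side and Shank on the other, ran from 607 through 619 to 657 CPM in wild type. Its heterozygous range was 594 to 644 CPM with a median of 607, and its homozygous range was 565 to 663 CPM with a median of 630. As for Dlg3, the extremes of the whole set were homozygous replicates 2 and 8. The homozygous log2 difference was 0.01 (95% interval -0.058 to 0.079, edgeR adjusted p = 0.914). The exons of AC079441.1 overlap Dlgap1 on the opposite strand.

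The 3 Shank genes encode the deep scaffold, which ties the density to Homer and the actin cytoskeleton. Each had a lower mean in homozygotes than in wild type, and none passed the test (edgeR adjusted p = 0.588 for Shank1, 0.385 for Shank2 and 0.356 for Shank3). Shank1 ran from 673 through 713 to 787 CPM in wild type, from 647 through 715 to 848 in heterozygotes and from 630 through 698 to 751 in homozygotes. Its heterozygous libraries alone spanned nearly the whole range, with replicate 1 lowest and replicate 5 highest. The homozygous log2 difference was -0.067 (95% interval -0.18 to 0.046, edgeR adjusted p = 0.588).

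Shank2 ran from 262 through 298 to 313 CPM in wild type, from 256 through 287 to 322 CPM in heterozygotes and from 254 through 276 to 299 CPM in homozygotes. The lowest libraries of the 3 genotypes were close together, and the highest homozygous library was below the highest of the other genotypes. The log2 difference of homozygotes from wild type was -0.09 (SE 0.05, 95% interval -0.19 to 0.012, unadjusted p = 0.081, edgeR adjusted p = 0.385).

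Shank3, on chromosome 15 from 89499623 to 89560261, is the member whose loss causes Phelan-McDermid syndrome in people. It ran from 255 through 273 to 305 CPM in wild type, from 258 through 279 to 300 CPM in heterozygotes and from 234 through 263 to 287 CPM in homozygotes. Homozygous replicates 1, 3 and 6, at 247, 249 and 234 CPM, lay below every library of the other genotypes, and the other 5 lay within their range. The homozygous log2 difference was -0.083 from wild type (95% interval -0.17 to 0.0064, edgeR adjusted p = 0.356). Against heterozygotes it was -0.099 (SE 0.043, 95% interval -0.19 to -0.01, unadjusted p = 0.0305), the only unadjusted p under 0.05 among the 27 pairwise values of the members. It did not pass adjustment over all genes (edgeR adjusted p = 0.405). With the GC slope as a covariate, which can take up part of a genotype difference, the difference was -0.046 (edgeR adjusted p = 0.738). With 3 surrogate variables it was -0.0057 (edgeR adjusted p = 0.986). With a replicate block it was -0.125 (edgeR adjusted p = 0.262). Gm15609 overlaps exons of Shank3 on the opposite strand, as 1700008O03Rik does for Shank1.

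Homer1, on chromosome 13 from 93303757 to 93404129, had the widest spread. Wild-type libraries ran from 144 through 181 to 272 CPM, heterozygous from 146 through 173 to 210 CPM and homozygous from 141 through 190 to 206 CPM. Wild-type replicate 1 at 272 CPM was far above the next library, wild-type replicate 3 at 220 CPM, and the lowest libraries of the 3 genotypes were alike. The homozygous libraries formed 5 values between 181 and 206 CPM and 3 between 141 and 148 CPM. The log2 difference of homozygotes from wild type was -0.12 with a 95% interval of -0.42 to 0.17 (edgeR adjusted p = 0.719), which is too wide to show a change of the size seen in the other members. Heterozygotes differed from wild type by -0.16 (95% interval -0.47 to 0.16, edgeR adjusted p = 1.0). Without wild-type replicate 1 these differences were -0.0041 in homozygotes and -0.037 in heterozygotes, and with tissue scores as covariates the homozygous difference was -0.30.

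**Figure D3:**
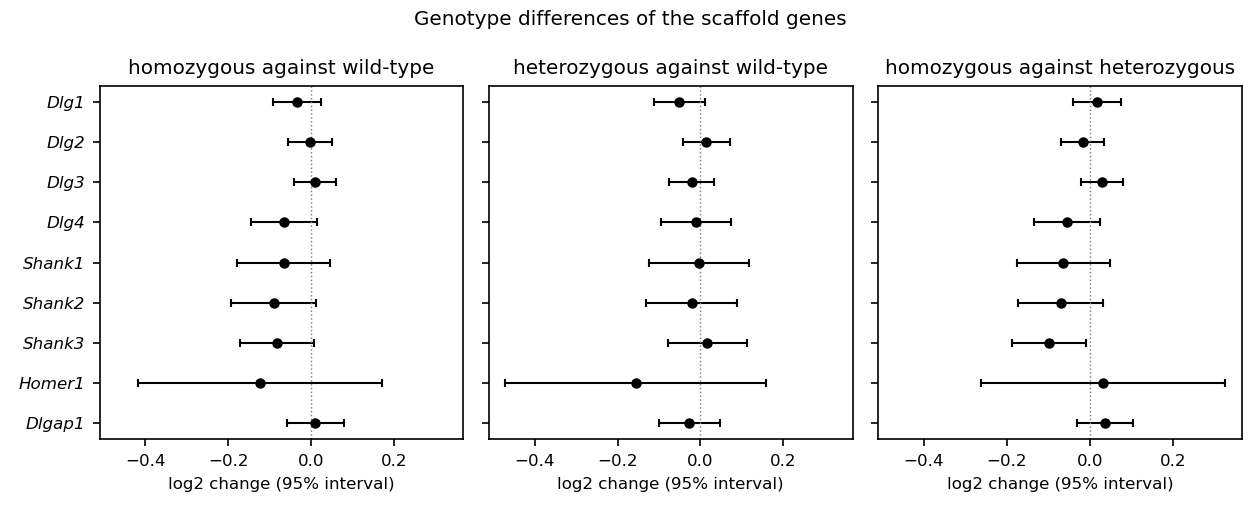
Log2 difference of each scaffold gene (horizontal axis, dots) with its 95% interval (bars) for the 3 pairwise comparisons of genotypes. Every interval but that of Shank3 in homozygotes against heterozygotes includes 0, and Homer1 has by far the widest.

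By sign, 7 of 9 members had a lower level in homozygotes than wild-type mice, with a median log2 difference of -0.065, where 49.4% of all genes were lower and the median of all genes was 0.0013. The members' median was -0.034 with the GC slope as a covariate, -0.009 with 3 surrogate variables, -0.042 with tissue scores and -0.017 without wild-type replicate 1. The slope used as a covariate came from deviations from the mean over all libraries, not from the genotype mean. It can therefore take up part of a genotype difference. In heterozygotes against wild type 7 of 9 were lower with a median of -0.02, and in homozygotes against heterozygotes 5 of 9 with a median of -0.017. The first 2 comparisons share the wild-type libraries. The members vary together across libraries, as described next, so these counts do not stand for 9 separate observations.

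Members differed greatly in how much they varied between libraries of 1 genotype. The SD of log2 CPM within genotypes was 0.26 for Homer1, which exceeded 99.5% of the 2212 genes with a mean of at least 100 CPM. It was 0.11 for Shank1, 0.10 for Shank2, 0.087 for Shank3 and 0.072 for Dlg4. Dlgap1 had an SD of 0.058 and Dlg1 of 0.047. Dlg2 and Dlg3, both at 0.038, were among the most uniform of those genes, at percentiles of 5.11 and 4.70.

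Across the 20 libraries with genotype means removed, some members rose and fell together. The share of such pairs among all genes was not computed. Genes outside the set also reached high r with a member, such as 0.921 for Dgkz with Dlg4. The values below are therefore not shown to be particular to the scaffold. Of 36 pairs, 7 passed a permutation test that shuffled libraries within genotypes (Benjamini-Hochberg adjusted over the 36 pairs), all with positive r. All 6 pairs among Dlg4, Shank1, Shank2 and Shank3 passed. Dlg4 and Shank1 were the closest pair (Pearson r = 0.955, Spearman rho = 0.937, adjusted permutation p = 0.00036), and r was 0.941 without the 2 libraries farthest from the median of Dlg4. The other 5 had r from 0.669 for Shank2 with Shank3 to 0.821 for Shank1 with Shank2, with rho from 0.657 to 0.859 and adjusted permutation p of at most 0.00674. In plain terms, a library high in PSD-95 mRNA was also high in mRNA of all Shank genes, such as heterozygous replicate 5 (909 CPM of Dlg4 and 848 of Shank1, the highest of all libraries for both).

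Dlg3 and Dlgap1 formed a separate pair (r = 0.875, rho = 0.768, adjusted permutation p = 0.00036, and r = 0.770 without the 2 farthest libraries). They did not follow Dlg4, with r near 0 for Dlgap1 and weakly negative for Dlg3. Dlg3 against Shank3 passed by rank only (rho = -0.602, adjusted permutation p = 0.0228), with r = -0.525 (adjusted permutation p = 0.0658). Dlg1 tended to be low where Shank1 was high (r = -0.565, adjusted permutation p = 0.0658), which did not pass. These libraries share the scaling to library size, and r describes variation between mice or samples of 1 genotype and not an effect of the allele.

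**Figure D4:**
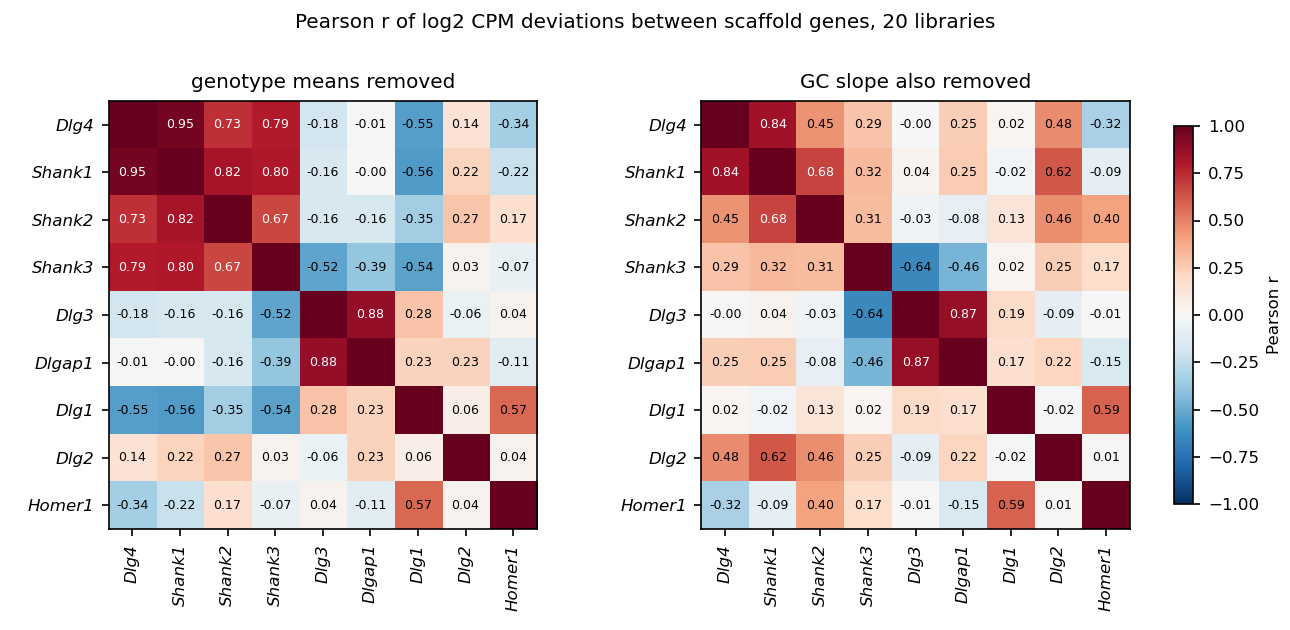
Pearson r of log2 CPM between scaffold genes over 20 libraries (color scale from -1 to 1, value in each square), with genotype means removed (left) and with the GC slope of each library removed as well (right). Dlg4 and the Shank genes form a block of positive values on the left that weakens on the right, whereas Dlg3 with Dlgap1 stays near 0.87.

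Several members moved with a property of the libraries that is fitted over many genes. For each library, the deviation of log2 CPM from the genotype mean was regressed on the G and C content of the coding transcript over 13727 genes, members left out, which gave a slope per 10 percentage points of GC. Wild-type slopes lay between -0.032 and 0.06, heterozygous between -0.035 and 0.062 and homozygous between -0.085 and 0.037. It was lowest in homozygous replicate 6 and highest in heterozygous replicate 5 and wild-type replicates 6 and 5. Dlg4 (r = 0.852), Shank1 (r = 0.848), Shank3 (r = 0.835) and Shank2 (r = 0.643) rose with the slope, and Dlg1 (r = -0.654) fell with it, at adjusted permutation p of at most 0.0452 over 99 relations. By Spearman's rho, Shank2 (adjusted permutation p = 0.0877) and Dlg1 (adjusted permutation p = 0.0562) did not pass. Dlg2, Dlg3, Homer1 and Dlgap1 did not pass. The share of all genes that follow the slope was not computed, so these relations are not shown to be particular to the members. The GC content of the coding transcript is 62.4% for Shank3, 61.4% for Shank1, 55.0% for Shank2 and 46.8% for Dlg4, against 43.8% for Dlg1 and 36.9% for Homer1. It is 52.0% for Dlg3 and 50.9% for Dlgap1. Dlg4, which rose with the slope, has a lower GC content on this measure than Dlg3 and Dlgap1, which did not pass. The measure takes the longest coding transcript of each gene, and which transcripts were expressed was not tested.

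With the slope regressed out of every gene, 4 of 36 pairs passed. Dlg4 with Shank1 (r = 0.836), Shank1 with Shank2 (r = 0.680) and Dlg3 with Dlgap1 (r = 0.872) stayed past the threshold, and Dlg3 with Shank3 now passed with a negative r (r = -0.643, adjusted permutation p = 0.00732). The pairs of Dlg4 with Shank2 (r = 0.452) and with Shank3 (r = 0.288), of Shank1 with Shank3 (r = 0.322) and of Shank2 with Shank3 (r = 0.315) no longer passed. The part of base composition in the co-variation beyond these values was not tested.

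Marker lists of cell types also moved with some members, in relations chosen after seeing the data. Dlg3 fell as the astrocyte score rose (r = -0.761, adjusted permutation p = 0.0163). Dlgap1 fell with the astrocyte score (r = -0.676) and with the oligodendrocyte score (r = -0.664), while Dlg4 (r = 0.581) and Shank1 (r = 0.575) rose with the inhibitory neuron score, each at an adjusted permutation p of 0.0452. By Spearman's rho none of these 5 relations passed, the smallest adjusted permutation p being 0.0834. The summed astrocyte markers ran from 4250 to 5221 CPM, the oligodendrocyte markers from 2622 to 4942 CPM and the inhibitory markers from 1160 to 1295 CPM, with overlapping ranges in the genotypes. Their part in the co-variation was not tested.

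**Figure D5:**
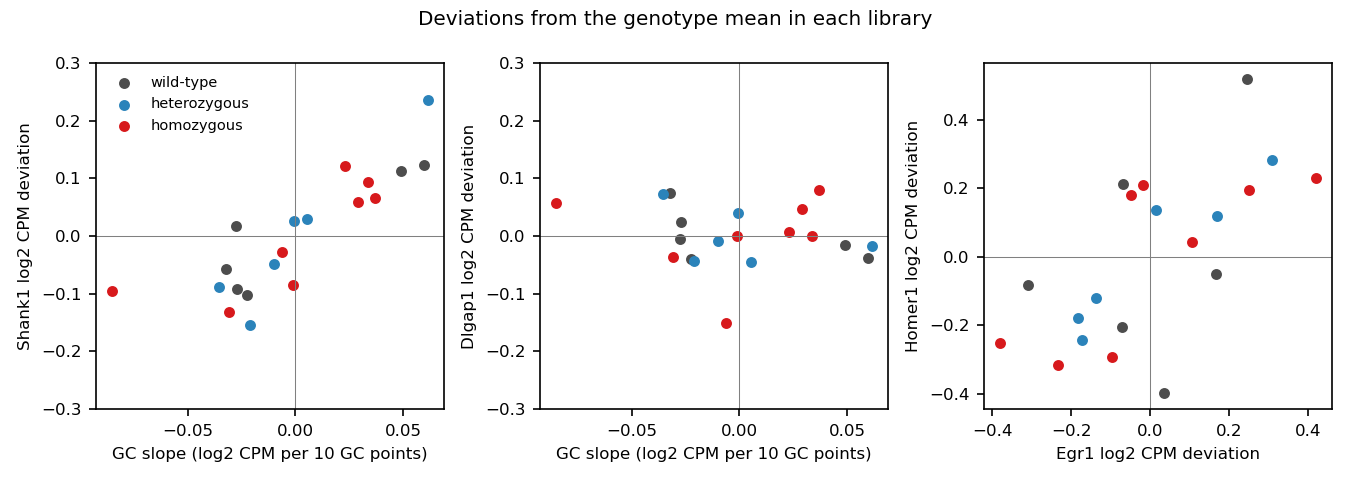
Deviations from the genotype mean in each library: Shank1 against the GC slope (left), Dlgap1 against the GC slope (middle) and Homer1 against Egr1 (right), all in log2 CPM, with the slope per 10 percentage points of GC. Shank1 climbs with the slope, Dlgap1 does not, and Homer1 is high where Egr1 is high.

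Homer1 was set against genes that neurons switch on with activity. Of 5 such genes, Egr1, an early transcription factor, passed (r = 0.663, rho = 0.689, adjusted permutation p = 0.0125, and r = 0.719 without the 2 farthest libraries). Arc, whose protein acts at the same synapses, had r = 0.450 (adjusted permutation p = 0.111), which was 0.681 without the 2 farthest libraries. Npas4 (r = -0.498), Nr4a1 (r = 0.254) and Fos (r = 0.137) did not pass. Without the 2 farthest libraries their r was -0.169, 0.451 and 0.315. The share of all genes with such r to Homer1 was not computed. With the GC slope regressed out, Egr1 (r = 0.705) and Arc (r = 0.537, adjusted permutation p = 0.0407) passed, and by Spearman's rho Arc did not (adjusted permutation p = 0.0608). Counts per gene do not say which form of Homer1 varied.

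The genes most like a member by r were found among 12530 tested genes with a mean of at least 1 CPM, over the same 20 libraries. Dlg4 was most like Dgkz (r = 0.921), Zmiz2 (r = 0.917) and Csnk1g2 (r = 0.915). The coding transcripts of these genes are 59.1% to 60.2% G and C, against 46.8% for Dlg4. Shank3 was most like Znrf1 (r = 0.909, 54.3% G and C), Grin2c (r = 0.890, 62.1%), an NMDA receptor subunit, and Brsk1 (r = 0.883, 59.8%). Homer1 was most like Arih1 (r = 0.911, 43.1% G and C), Pdp1 (r = 0.883, 39.2%) and Ankrd50 (r = 0.879, 50.7%).

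The rest of the pathway was described by fixed lists, which were chosen with earlier results of these data known. Of 55 other postsynaptic density proteins tested, 0 were higher and 1, Mpp3, was lower in homozygotes than in wild type, with a median log2 difference of -0.0068 against 0.0013 for all genes. Of 25 receptors and adhesion proteins tied to the scaffold, 0 were higher and 1, Cacng2, was lower (median 0.018). Of 20 activity-regulated genes 0 were called (median 0.064). Heterozygotes differed from wild type, and homozygotes from heterozygotes, in 0 genes of these lists. In homozygotes against wild type, 0.641% of all genes were called higher and 0.923% lower.

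Mpp3, a membrane-associated guanylate kinase of the same superfamily as the Dlg proteins, lay between 52.9 and 58.1 CPM in wild type, between 49.0 and 54.7 in heterozygotes and between 47.1 and 53.8 in homozygotes. The homozygous fall of 0.14 on the log2 scale (SE 0.034, edgeR adjusted p = 0.0382) was past the threshold by little. It remained called in 13 of 20 fits that left out 1 library and in 5 of 10 other alternatives, and was lost without wild-type replicate 1, 5 or 6 or homozygous replicate 1, 2, 3 or 5. Cacng2 (stargazin), the AMPA receptor partner through which PSD-95 holds these receptors, lay between 100.5 and 119 CPM in wild type, between 101 and 109 in heterozygotes and between 94.1 and 109 in homozygotes. Its homozygous fall was also 0.14 (SE 0.036, edgeR adjusted p = 0.0483), and it remained called in 6 of 20 fits that left out 1 library and in 4 of 10 other alternatives. It was lost without wild-type replicate 1, 3, 5 or 6, heterozygous replicate 1, 2, 4 or 5, or homozygous replicate 1, 2, 3, 5, 6 or 8. Both calls were also lost with 3 surrogate variables, with tissue scores, with the GC slope, in the fit of 2 genotypes and when libraries of high ependymal score were left out, and that of Cacng2 without a filter on low counts. Both genes kept their direction in all of these, with log2 differences from -0.16 to -0.086 for Mpp3 and from -0.16 to -0.089 for Cacng2, the smallest with tissue scores, and with adjusted p up to 0.286 and 0.263. The exons of A730060N03Rik overlap Cacng2 on the opposite strand. Different genes of these lists were called in some alternatives of homozygotes against wild type. With tissue scores 2 genes of the list of other postsynaptic density proteins were called, neither of them Mpp3. With 3 surrogate variables 1 gene of the list of receptors and adhesion proteins was called, which was not Cacng2.

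The next genes by p in these lists did not pass. Cask, a scaffold kinase, had a log2 difference of 0.088 (edgeR adjusted p = 0.186), Iqsec3, which acts at inhibitory synapses, of -0.12 (adjusted p = 0.195) and Spnb3, a spectrin, of -0.077 (adjusted p = 0.211). Grin2b, the NMDA receptor subunit that binds Dlg proteins, measured 61.9 ± 7.07 CPM (SD, n = 6) in wild type and, in homozygotes, 73.4 ± 11.0 CPM (SD, n = 8), a log2 difference of 0.25 that did not pass (edgeR adjusted p = 0.238). Grm5, the metabotropic receptor that binds Homer, differed by 0.091 (adjusted p = 0.289), and Itpr1, the calcium store channel that binds Homer, by -0.053 (adjusted p = 0.291).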

How the data were processed

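Poly(A) RNA of 20 frontal cortex samples was sequenced from stranded libraries, per the labels' protocols. The authors deposited a raw count per gene as whole numbers without scaling. The submitters' processing notes list HISAT2 2.0.5, Trim Galore 0.4.3 and the build GRCm38. Counting program, annotation and strand are not given in those notes. No 2 libraries were identical.

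Counts were tested with edgeR 4.0.16 in 1 fit of all libraries (R 4.3.3, filterByExpr, TMM, robust quasi-likelihood test), with Benjamini-Hochberg adjustment over 16690 genes. CPM use TMM factors. Correlations used log2 CPM (prior count 2) and 100000 two-sided shuffles within genotypes. Marker scores are mean z of log2 CPM. The fit was checked on simulated counts that were drawn gene by gene, so the check does not cover variation shared between genes.

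Alternatives were DESeq2 1.42.0, edgeR with DESeq2's size factors, testing without a filter, or with one of 1 CPM in 6 libraries, a replicate block, 3 surrogate variables from sva 3.50.0, tissue scores as covariates, fits of 2 genotypes and each library left out. Leaving out libraries of high ependymal score and the GC slope were added after seeing the data. As a covariate, the GC slope was taken from deviations from the mean over all libraries. For the correlations it was taken from deviations from the genotype mean. The 99 relations of members with the GC slope and the marker scores were also chosen after seeing the data. Named were all members, called genes of the 2 pathway lists filled to 4 by smallest p, and the 3 genes most like Dlg4, Shank3 and Homer1. Members and lists were chosen with earlier results of these data known. In homozygotes against wild type, 1 of 15 excitatory neuron markers (lower), 1 of 11 inhibitory neuron markers (lower) and 1 of 13 ependymal markers (higher) were called. The share of all genes was 1.56%. The striatal, choroid plexus, meningeal, olfactory bulb, oligodendrocyte, astrocyte and microglia lists had 0 called. Lower in homozygotes were 0 of 13 ependymal, 0 of 9 olfactory bulb, 0 of 11 meningeal, 1 of 7 choroid plexus and 4 of 12 striatal markers. Their median log2 differences were 0.61, 0.85, 0.32, 0.46 and 0.072.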

Additional observations from a re-analysis of the deposited data

How the results depend on the processing

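In every alternative 0 of 9 members were called in each comparison. Of 270 member values under alternatives that kept all replicates or left out libraries by ependymal score, 244 kept their sign and 26 turned, with a smallest adjusted p of 0.128. Log2 values that turned in homozygotes against wild type were, with 3 surrogate variables, Dlg2 0.0086, Dlg3 -0.0051, Shank1 0.025 and Dlgap1 -0.00896, with tissue scores Dlg2 0.016, and without the 4 libraries of ependymal score over 0.5 Dlg2 0.017. In heterozygotes against wild type they were Shank3 -0.0041 and Dlgap1 0.0024 with surrogate variables, Dlg4 0.0032, Shank1 0.031 and Dlgap1 0.0059 with tissue scores, and Shank3 -0.00103 with the GC slope. In homozygotes against heterozygotes surrogate variables gave Dlg1 -0.0201, Dlg3 -0.00071, Dlg4 0.0081, Shank1 0.042, Shank2 0.036, Homer1 -0.012 and Dlgap1 -0.011, tissue scores gave Homer1 -0.12, the ependymal alternative Dlg2 0.014, and the GC slope Dlg1 -0.00492, Shank1 0.00764 and Homer1 -0.0048. The cause was not tested. Of 540 values with 1 library left out 20 turned, and the ranges were -0.013 to 0.0045 for Dlg2, -0.00047 to 0.0201 for Dlg3 and -0.0019 to 0.0298 for Dlgap1 in homozygotes against wild type. They were -0.038 to 0.0073 for Dlg4, -0.054 to 0.027 for Shank1, -0.055 to 0.0105 for Shank2 and -0.0059 to 0.046 for Shank3 in heterozygotes against wild type, and -0.013 to 0.094 for Homer1 in homozygotes against heterozygotes. With the GC slope regressed out, 4 pairs of members and 2 activity genes passed by r, against 7 and 1. Counts of all called genes in homozygotes against wild type were 261, against 647 with DESeq2, and in homozygotes against heterozygotes 18 against 103 with DESeq2, 11 without a filter, 6 with the GC slope and 1 with surrogate variables or tissue scores. For the trend they were 306, against 696 with DESeq2 and 193 without the libraries of high ependymal score. With 1 library left out they ran from 115 to 314 in homozygotes against wild type (139, 148, 122 and 115 without wild-type replicates 1, 3, 5 and 6, and 147 without homozygous replicate 5). In homozygotes against heterozygotes they ran from 5 to 31 (5, 10 and 7 without heterozygous replicates 2, 3 and 6, 29 without wild-type replicate 6, and 5, 31, 11 and 5 without homozygous replicates 1, 2, 6 and 8). For the trend they ran from 159 to 436 (189 without homozygous replicate 5 and 159 without wild-type replicate 5 or 6).

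The labels do not say whether equal replicate numbers pair samples. Deviations of 18 same-numbered pairs correlated from -0.18 to 0.20, with r over 0.1 in 7. Of 20 libraries, 1 correlated best with its own number. A shared litter or batch was not tested. With the replicate block 387 genes were called in homozygotes against wild type and 0 members, and Dlgap1 turned to -0.0037 there, as Homer1 did to -0.045 in homozygotes against heterozygotes.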
